A study of Rattus norvegicus with 36 samples.

Results

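The interferon response genes are transcripts that cells make more of after interferon, a signalling protein of antiviral and antitumour defence, binds its receptor. A list of 43 rat genes was looked up by symbol in the annotation of the array platform. Of these, 39 had a probe set that carries their symbol alone, out of 14217 genes with such a probe set, and Ddx58, Gbp5, Ifi47 and Xaf1 were not analysed here. Where a gene had several probe sets, the one with the highest mean over all arrays stood for it. The choice of probe set used no comparison between groups. The genes and classes themselves were listed with earlier results of these data known. By textbook knowledge of their main inducer, 22 of the 39 genes were placed in a type I class (induced mainly by interferon alpha and beta) and 17 in a gamma class (induced strongly by interferon gamma). Many genes of each class respond to both kinds of interferon.

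The samples were livers of male Harlan Sprague Dawley rats, 7 weeks old at the start, fed NTP-2000 diet. Every group was gavaged once daily with corn oil (5 ml/kg body weight) for 5 days running, and tissue of the left lobe was collected on the day that followed. In 5 groups the oil carried TBPH (bis(2-ethylhexyl) tetrabromophthalate), a flame retardant whose ester groups are those of the plasticiser DEHP. The doses were 0.07 and 0.71 mg/kg, then 7.06 and 70.6 mg/kg, and 706 mg/kg, and the vehicle group received the oil alone, with 6 arrays in each of the 6 groups. Total RNA was measured on 36 Affymetrix arrays, which read transcripts near their 3′ ends. Sprague Dawley rats are an outbred stock, so animals differ in genotype. Replicates are numbered in the labels, with no statement that they are different animals, and the p-values therefore reflect only how far these samples spread. The study asked which liver transcripts differ between each dose and vehicle at a false discovery rate of 5%.

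Values are log2 expression values made by the authors with RMA, which corrects background, equalises the distributions of the arrays and summarises the probes of each probe set. They ran from 1.86 to 14.77, and the median of each array lay between 5.06 and 5.14. Of the 39 genes, 36 had a mean above the median of all probe sets, and none was left out for low signal. On 2 arrays the 3′ probe set of the GAPDH control exceeded its 5′ probe set by more than on the other 34, which is a sign of shorter RNA or cDNA. The difference was 0.41 in 70.6 mg/kg replicate 5 and 0.33 in 0.07 mg/kg replicate 4, and at most 0.09 elsewhere. Several results that rest on these arrays are given with and without them, and others only with them. Of the 7 hepatocyte markers listed, Alb, Ttr, Serpina1, Apoa1, Cyp2c11 and Cps1 read at least 13.02 on every array, as the tissue label says. Tat was lower, with a mean of 9.32 (8.41 to 10.36).

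Interferons alpha and beta bind one receptor pair and interferon gamma another. Both use JAK kinases, which phosphorylate STAT proteins. The type I signal forms a complex that includes STAT2 and IRF9 and binds a DNA element called ISRE, and the gamma signal acts through an element called GAS. The gamma signal also raises IRF1, which binds ISRE-like elements itself. In liver, Kupffer cells, the resident macrophages, take up material that arrives from the gut and respond to interferon, as hepatocytes do.

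The 250 bases before the gene start were searched on both strands for the ISRE core (GAAA, 2 bases of any kind, GAAA) and the GAS core (TTCNNNGAA, where N is any base). RefSeq promoter sequences of build GRCr8 were at hand for 33 of the 39 genes. The ISRE core was found in 19 of these 33 windows (57.6%), against 1140 of all 33469 promoter windows (3.41%). It stood in 10 of 16 type I windows and in 9 of 17 gamma windows, so both classes carried it. The GAS core was found in 11 of 33 windows (33.3%), against 7.67% of all windows, with 5 of 16 in the type I class and 6 of 17 in the gamma class. In Bst2, 1 ISRE match overlapped a GAS match. The genes were listed because interferon induces them, so these shares describe the list. A match is a description of the letters and not evidence of binding.

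The 100 bases before the start are shown for example genes among the antiviral effectors, transcription factors, antigen processing genes and GTPases, and for Ubd, each written 5′ to 3′ along the gene's own strand. Capitals mark the ISRE core, which reads TTTC, 2 bases, TTTC where it lies on the opposite strand, and adjacent or overlapping matches form 1 run of capitals. They are examples of promoters with the core, and Ubd is shown as one without it in this window.
Ifit3, chr1:241527226-241527325, + strand: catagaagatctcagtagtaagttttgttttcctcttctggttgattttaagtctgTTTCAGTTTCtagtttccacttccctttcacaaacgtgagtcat
Oas1a, chr12:41330366-41330465, + strand: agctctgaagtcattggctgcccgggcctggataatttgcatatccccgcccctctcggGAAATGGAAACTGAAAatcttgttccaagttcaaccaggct
Ifi44, chr2:243303841-243303940, - strand: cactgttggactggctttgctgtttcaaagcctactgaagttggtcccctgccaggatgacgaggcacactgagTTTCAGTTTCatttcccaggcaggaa
Irf7, chr1:205800024-205800123, - strand: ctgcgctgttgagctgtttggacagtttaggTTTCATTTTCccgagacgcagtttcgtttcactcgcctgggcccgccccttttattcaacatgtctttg
Gbp2, chr2:234005627-234005726, + strand: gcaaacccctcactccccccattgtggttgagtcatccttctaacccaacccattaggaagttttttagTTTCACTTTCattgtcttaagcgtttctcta
Irgm, chr10:33742579-33742678, - strand: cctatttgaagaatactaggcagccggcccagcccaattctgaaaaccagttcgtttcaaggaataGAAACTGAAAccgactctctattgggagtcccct
Psmb10, chr19:50743293-50743392, - strand: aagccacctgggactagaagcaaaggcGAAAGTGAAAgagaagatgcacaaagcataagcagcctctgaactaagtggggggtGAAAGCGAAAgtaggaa
Tapbp, chr20:4967878-4967977, - strand: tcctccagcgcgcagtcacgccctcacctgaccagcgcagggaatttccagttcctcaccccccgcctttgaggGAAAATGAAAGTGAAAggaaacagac
Ubd, chr20:1392686-1392785, - strand: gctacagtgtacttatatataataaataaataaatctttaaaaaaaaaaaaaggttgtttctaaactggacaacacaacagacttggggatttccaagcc

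The core began 44 bases before the start in Ifit3, 26 in Ifi44 and 34 in Irgm. Neither core was found in the 250 bases of Ubd, Trim25 or Mx1, which says only that these letters are not in that window.

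The 39 genes varied widely between livers of the same group, and most of them varied together. Their median standard deviation within groups was 0.36 log2, against 0.14 for all 14217 genes, and 36 of the 39 lay above the median gene. All 22 type I genes and 14 of the 17 gamma genes did so. To follow them array by array, each gene was centred on its mean over the 36 arrays, and the centred values were averaged over each class to give a score. Zero is the mean array, and a score of 0.5 means that the genes of the class stood 0.5 log2 above their own means on average. Ubd was kept out of the gamma score because its values split, as described at the end of the account by role.

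**Figure D1:**
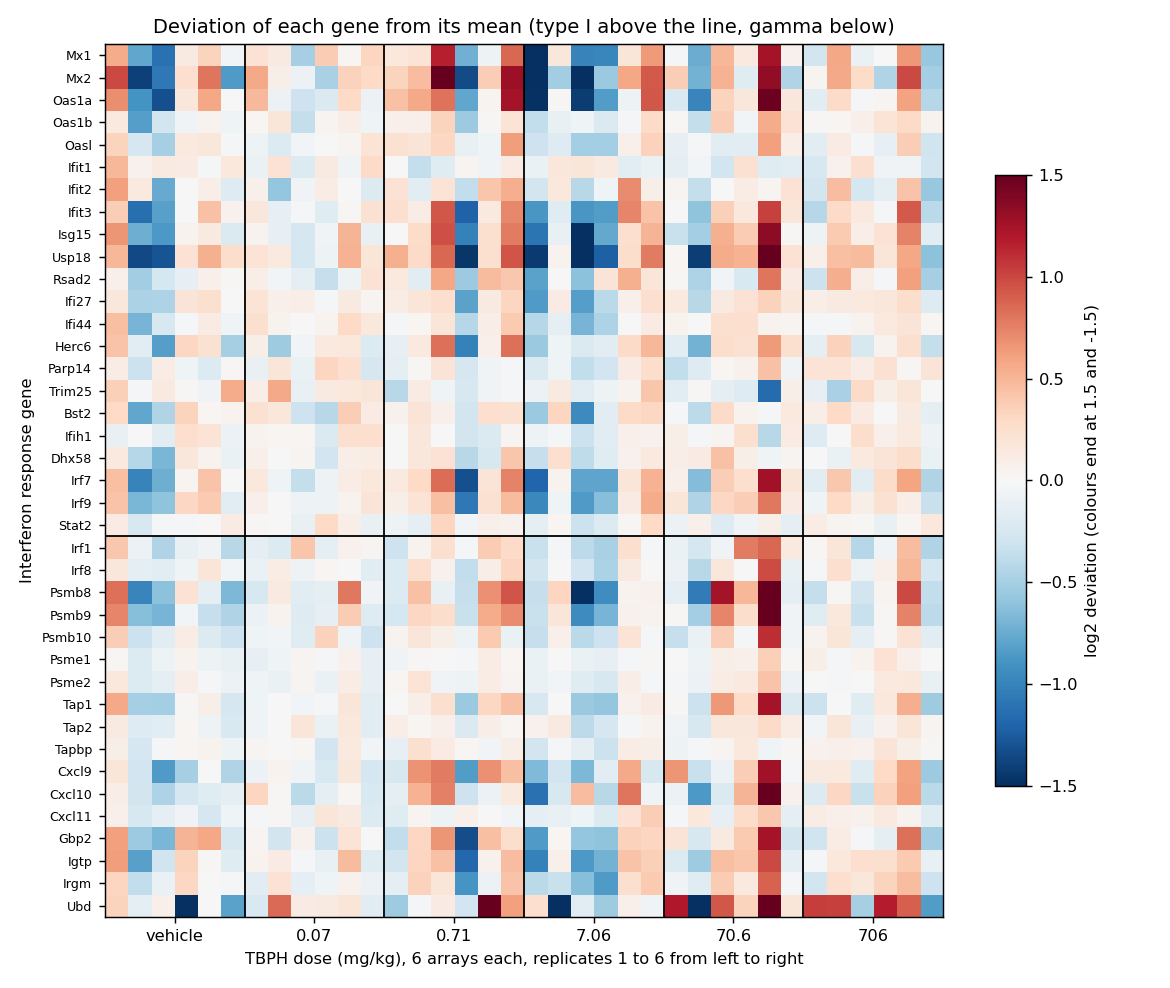
Deviation of each of the 39 interferon response genes (rows) from its mean over 36 arrays, on the log2 scale, with the arrays (columns) ordered by TBPH dose in mg/kg from vehicle to 706 and by replicate within a group. Whole columns are red or blue for most genes at once, such as 70.6 mg/kg replicate 5 and 7.06 mg/kg replicate 3, while Ifit1 and Trim25 keep to no column pattern and Ubd has 3 dark blue cells.

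The type I score ran from -0.77 to 0.53 over the 36 arrays. In vehicle livers its lowest, median and highest values were -0.57, 0.03 and 0.38. At 0.07 mg/kg they were -0.14, 0.05 and 0.17, and at 0.71 mg/kg they were -0.64, 0.12 and 0.51. Low and high livers thus stood side by side within vehicle and 0.71 mg/kg, while the 0.07 mg/kg livers lay close together. At 7.06 mg/kg the values were -0.77, -0.21 and 0.39, at 70.6 mg/kg -0.40, 0.10 and 0.53, and at 706 mg/kg -0.25, 0.07 and 0.38. Every dose group overlapped vehicle. The 7 arrays with a type I score below -0.35 were 3 at 7.06 mg/kg, 2 in vehicle, 1 at 0.71 and 1 at 70.6 mg/kg.

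The gamma score without Ubd ran from -0.46 to 0.92. Its lowest, median and highest values were -0.38, -0.13 and 0.34 in vehicle, -0.14, -0.04 and 0.18 at 0.07 mg/kg, and -0.40, 0.23 and 0.28 at 0.71 mg/kg. They were -0.46, -0.21 and 0.22 at 7.06 mg/kg, -0.32, 0.12 and 0.92 at 70.6 mg/kg, and -0.27, 0.03 and 0.43 at 706 mg/kg. The value of 0.92 came from replicate 5 of 70.6 mg/kg, the array with the largest GAPDH control difference, and the highest value on any other array was 0.43. No group was clear of vehicle in this score either.

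**Figure D2:**
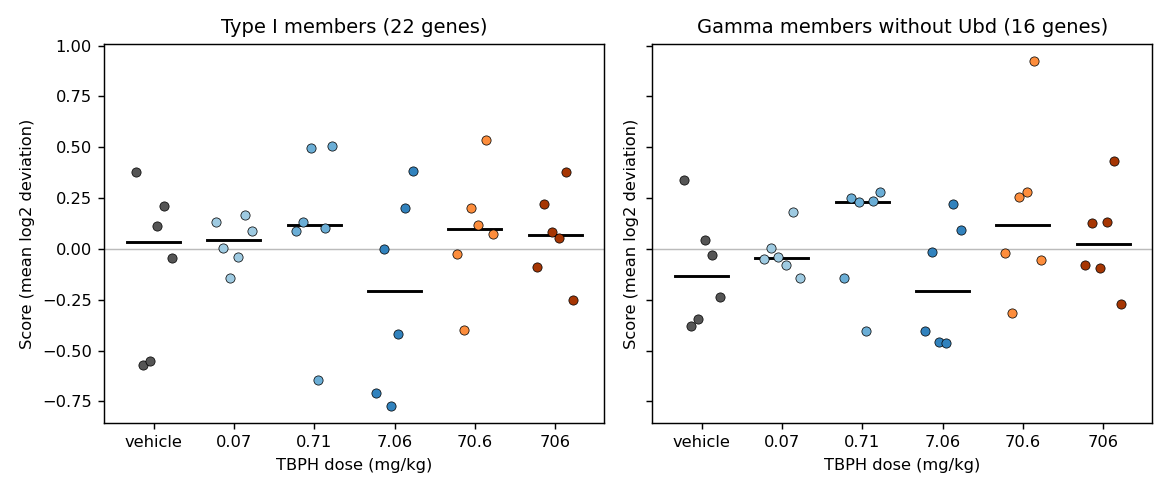
Type I score (left) and gamma score without Ubd (right) on each of the 36 arrays, as mean log2 deviation, against TBPH dose in mg/kg with vehicle at the left; points are arrays and bars are group medians. The range within vehicle, from -0.57 to 0.38 for the type I score, covers the medians of all 5 doses, and 1 array at 70.6 mg/kg stands at 0.92 in the gamma score.

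Type I and gamma genes largely moved as one. Over the 36 arrays the 2 scores had a Pearson correlation of 0.86 and a Spearman correlation of 0.86. Pearson's r was 0.84 without the 2 arrays farthest from the median type I score, 0.88 without the 2 arrays of high GAPDH difference, and 0.86 on deviations from the group means. The scores had the same sign on 29 of 36 arrays. The difference between them, gamma minus type I, ran from -0.29 to 0.39, again highest in replicate 5 of 70.6 mg/kg. Arrays share normalisation and the same RNA for both scores, so the correlations are given as descriptions, with no test.

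Among single genes, the median correlation was 0.59 over the 741 pairs of the 39 genes. It was 0.61 within the type I class, 0.64 within the gamma class and 0.56 across the classes, against 0.03 among 514 other genes. On deviations from group means it was 0.58 over all pairs, so the shared movement was as strong within the dose groups. Usp18, a protease that removes ISG15 from proteins, followed the mean of the other type I genes with r = 0.96, as did Irf7. Isg15, Irf9 and Oas1a each had r = 0.95. In the gamma class Tap1 (0.92), Psmb9 (0.92) and Irf8 (0.91) led. These genes were picked here for their high correlations, after the values were seen.

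A few genes did not follow their class. Ifit1 had r = -0.12 and Trim25 r = -0.06 with the rest of the type I class, and Ifih1 had 0.35 and Stat2 0.49. Without the 2 arrays of high GAPDH difference these were -0.08, 0.18, 0.56 and 0.53. In the gamma class the lowest were Ubd at 0.48, Tapbp at 0.49 and Cxcl11 at 0.52, which became 0.36, 0.70 and 0.40 without those arrays. The immunity GTPases crossed the line between classes: Igtp had r = 0.91 with the type I score and 0.83 with the other gamma genes, and Gbp2 had 0.86 and 0.80. A probe set is not a whole gene. In all, 10 genes had more than 1 probe set, and the second ones of Psme1 and Tap1 had r = -0.12 and r = -0.10 with the first, whereas those of Cxcl9, Ifit2 and Irf9 had 0.97, 0.97 and 0.98.

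At no dose did any of the 39 genes pass the threshold. With limma on all 36 arrays and Benjamini-Hochberg adjustment over 31042 probe sets, 0 of 39 passed an adjusted p of 0.05 at 706 mg/kg (background 0.00% of all probe sets), at 70.6 mg/kg (0.00%), at 7.06 mg/kg (0.00%), at 0.71 mg/kg (0.00%) and at 0.07 mg/kg (0.00%). The lowest adjusted p among them was 0.921, at 70.6 mg/kg. At an unadjusted p under 0.05 there were 2 genes at 706 mg/kg (background 3.48%), 7 at 70.6 mg/kg (background 5.24%), 0 at 7.06 mg/kg (3.48%), 2 at 0.71 mg/kg (3.98%) and 0 at 0.07 mg/kg (3.07%). The 7 genes at 70.6 mg/kg, 17.9% of the 39, were 5 above vehicle and 2 below it. At 706 and at 0.71 mg/kg, 1 gene was above vehicle and 1 below. The 70.6 mg/kg count became 2 without replicate 5 of that dose and 3 without vehicle replicate 2 or 3. It became 13 without vehicle replicate 1 and 12 without replicate 2 of 70.6 mg/kg. With 1 array left out the count at 0.71 mg/kg ran from 0 (without its replicate 3) to 7 (without its replicate 4), and that at 706 mg/kg from 0 (without its replicate 4 or vehicle replicate 6) to 4 (without vehicle replicate 1).

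A slope over dose rank gave 0 of 39 genes at an adjusted p under 0.05 (background 0.00%) and 5 at an unadjusted p under 0.05 (background 4.16%), with a lowest adjusted p of 0.998. Of the 5, Psme1, Oas1b and Cxcl11 rose with dose rank, and Ifit1 and Trim25 fell. The test of any difference among the 6 groups gave 0 (background 0.00%) and 1, Ifi44 (background 2.54%), with a lowest adjusted p of 1.00.

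Most of the 39 genes nevertheless stood slightly above vehicle at 4 of the 5 doses and below it at 7.06 mg/kg. The median log2 difference, dose minus vehicle, was 0.16 at 706 mg/kg with 35 of 39 genes higher, against a median of 0.01 over all genes. At 70.6 mg/kg it was 0.21 with 35 higher, at 0.71 mg/kg 0.18 with 34 higher, and at 0.07 mg/kg 0.11 with 33 higher. At 7.06 mg/kg it was -0.09, and 10 of 39 genes were higher. Over all 14217 genes, 7553 were higher at 706 mg/kg, 7785 at 70.6, 7731 at 7.06, 7592 at 0.71 and 7341 at 0.07 mg/kg. All doses share the same 6 vehicle arrays, 2 of which (replicates 2 and 3) had low scores in both classes, so these figures are not independent of each other. Nor are the 39 genes separate observations, since most of them move together from liver to liver.

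The size of these shifts was within the spread of the livers. The pooled standard deviation of the mean over all 39 genes within groups was 0.31 log2. Without the 2 arrays of high GAPDH difference the median at 70.6 mg/kg was 0.10, with 33 higher. Leaving out vehicle replicate 2 brought the count at 0.07 mg/kg to 20 of 39 higher, and at 7.06 mg/kg the count was 19 without vehicle replicate 1, 16 without replicate 3 of that dose and 5 without its replicate 5.

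**Figure D3:**
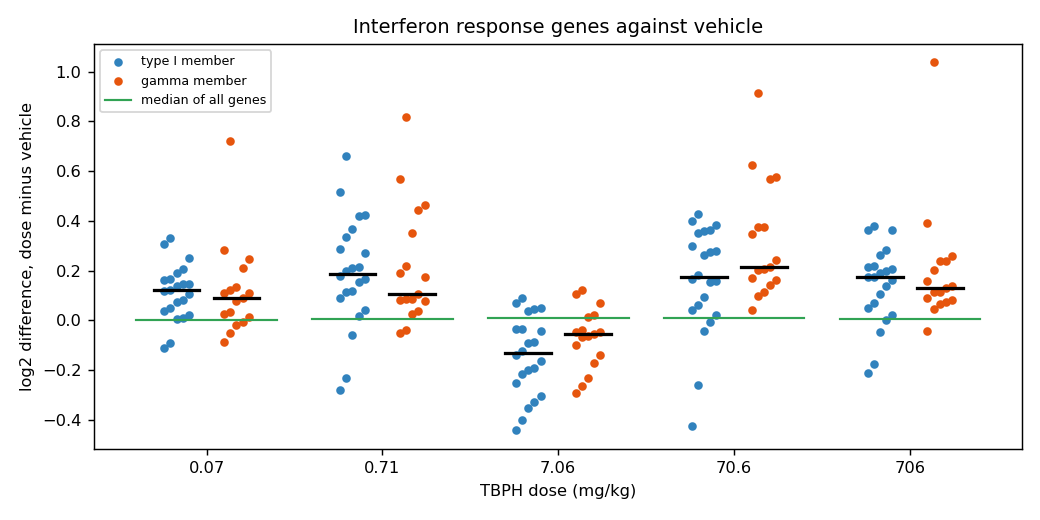
Log2 difference of each interferon response gene between a dose and vehicle, against TBPH dose in mg/kg; blue points are the 22 type I genes, orange points the 17 gamma genes, black bars the class medians and green lines the median of all genes. The bars stand at 0.12 to 0.19 (type I) and 0.09 to 0.22 (gamma) except at 7.06 mg/kg, where they are at -0.13 and -0.05, and no single gene passed the adjusted threshold.

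The medians of both classes lay on the same side of vehicle at each dose. The type I median was 0.18 at 706 mg/kg, where the gamma median was 0.13. It was 0.17 against 0.22 at 70.6 mg/kg, -0.13 against -0.05 at 7.06 mg/kg, 0.19 against 0.10 at 0.71 mg/kg and 0.12 against 0.09 at 0.07 mg/kg. The order of the classes therefore changed between doses. All 17 gamma genes were above vehicle at 70.6 mg/kg, where the medians became 0.10 (type I) and 0.09 (gamma) without the 2 arrays of high GAPDH difference.

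The upstream pathway was followed with a list of ligands, receptors, kinases and sensors that are not among the 39 genes. Of 48 listed, 35 were on the array, and 0 passed the adjusted threshold at any dose. Its median difference was 0.01 at 706 mg/kg with 20 of 35 genes higher, 0.05 at 70.6 mg/kg with 26 higher, 0.00 at 7.06 mg/kg with 16 higher, 0.03 at 0.71 mg/kg with 25 higher and 0.03 at 0.07 mg/kg with 25 higher. At 70.6 mg/kg Il15, a cytokine that sustains NK cells, averaged 5.84 ± 0.30 against 5.50 ± 0.27 in vehicle livers (SD, n = 6 each), with an adjusted p of 0.921 (limma). Myd88, the adaptor of most Toll-like receptors, averaged 8.53 ± 0.23 at that dose against 8.25 ± 0.19 in vehicle livers, with the same adjusted p. Both means at 70.6 mg/kg include replicate 5, the array with the largest GAPDH control difference. Tyk2, a kinase of the type I receptor, was 0.16 above vehicle at 0.71 mg/kg (95% interval 0.01 to 0.32), and Socs1, a feedback inhibitor of JAK kinases, was 0.12 below it at 706 mg/kg (95% interval -0.24 to 0.01). Mavs, the adaptor of the RNA sensors, differed from vehicle by 0.12 at 0.07 mg/kg, and Pml, a nuclear body protein, by -0.17 at 7.06 mg/kg, and neither passed the test. The probe sets of the ligand genes were dim. Ifnb1 averaged 3.81 ± 0.08 at 706 mg/kg and 3.88 ± 0.10 in vehicle, and Ifng 2.63 ± 0.15 and 2.67 ± 0.05, with no difference past the threshold.

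The sensors of the list recognise viral RNA in the cytosol. Ifih1, which encodes MDA5, stayed in a narrow band, with a lowest, median and highest value of 6.42, 6.54 and 6.84 in vehicle and 6.40, 6.62 and 6.86 at 706 mg/kg. Dhx58, which encodes the regulator LGP2, ran from 4.81 to 5.67 in vehicle with a median of 5.48, and from 5.40 to 5.76 at 706 mg/kg with a median of 5.57. Both overlapped vehicle, and neither passed the test.

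Among the transcription factors, Irf7, the amplifier of type I interferon production, spanned 2.58 log2 over the 36 arrays. Its lowest, median and highest values were 6.66, 7.68 and 8.11 in vehicle, 7.30, 7.69 and 7.82 at 0.07 mg/kg, and 6.34, 7.90 and 8.50 at 0.71 mg/kg. They were 6.46, 7.29 and 8.18 at 7.06 mg/kg, 7.01, 7.87 and 8.92 at 70.6 mg/kg, and 7.21, 7.71 and 8.25 at 706 mg/kg. Replicate 5 of 70.6 mg/kg held the 8.92. The medians stayed within the vehicle range at all doses, and the Irf7 difference at 706 mg/kg had an adjusted p of 1.00 (limma). Irf9, the DNA-binding part of the type I complex, had lowest, median and highest values of 6.87, 7.30 and 7.50 at 706 mg/kg and 6.52, 7.28 and 7.63 in vehicle. Stat2, its partner, varied little, from 8.62 to 8.89 at 706 mg/kg and from 8.49 to 8.86 in vehicle. Irf1 averaged 7.77 ± 0.35 at 706 mg/kg and 7.70 ± 0.31 in vehicle (SD, n = 6 each). Of the 5 transcription factors, 5 were above vehicle at 706 mg/kg, 4 at 70.6, 0 at 7.06, 5 at 0.71 and 4 at 0.07 mg/kg, and none passed the test.

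Of the 17 antiviral effectors, 14 were above vehicle at 706 mg/kg, 15 at 70.6, 4 at 7.06, 15 at 0.71 and 15 at 0.07 mg/kg, and none passed the test. Mx2, a GTPase of the family that blocks virus replication, ran from 3.39 to 7.61 over the 36 arrays, and Usp18 spanned 3.48 log2. Both were singled out here after their values were seen. Ifi27, an interferon-induced mitochondrial protein, had lowest, median and highest values of 12.15, 12.72 and 12.86 in vehicle, 11.77, 12.47 and 12.89 at 7.06 mg/kg and 12.44, 12.77 and 12.90 at 706 mg/kg. Bst2, which tethers budding virus particles to the cell, ran from 10.82 to 11.26 at 706 mg/kg with a median of 11.07, and from 10.17 to 11.29 in vehicle with a median of 11.00. Low Ifi27 livers appeared in vehicle as well as at 7.06 mg/kg, and in both genes the groups overlapped.

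Ifit1, which binds viral RNA that lacks a cellular cap, was lower than vehicle at every dose. Its lowest, median and highest values were 5.49, 5.64 and 6.00 in vehicle, 5.30, 5.55 and 5.80 at 0.07 mg/kg, and 5.16, 5.48 and 5.63 at 0.71 mg/kg. They were 5.34, 5.53 and 5.69 at 7.06 mg/kg, 5.22, 5.35 and 5.74 at 70.6 mg/kg, and 5.23, 5.46 and 5.74 at 706 mg/kg. All dose medians lay below the vehicle median, and the ranges overlapped. The log2 difference was -0.21 at 706 mg/kg (95% interval -0.42 to -0.01) and -0.26 at 70.6 mg/kg (-0.46 to -0.05), with adjusted p-values of 1.00 and 0.921 (limma). All doses share vehicle replicate 1, the liver with 6.00. Without it the differences were -0.15 at 706, -0.19 at 70.6, -0.07 at 7.06, -0.16 at 0.71 and -0.04 at 0.07 mg/kg. The Ifit1 probe set did not follow the other type I genes from liver to liver. Ifit2, of the same family, did so with r = 0.61, and averaged 8.18 ± 0.41 at 706 mg/kg and 8.22 ± 0.45 in vehicle (SD, n = 6 each).

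Trim25, a ubiquitin ligase that activates the RNA sensor RIG-I, was below vehicle in mean level at 4 of the 5 doses. Its lowest, median and highest values were 8.58, 8.70 and 9.19 in vehicle, 8.52, 8.78 and 9.20 at 0.07 mg/kg, and 8.21, 8.57 and 8.75 at 0.71 mg/kg. They were 8.47, 8.61 and 9.04 at 7.06 mg/kg, 7.48, 8.47 and 8.72 at 70.6 mg/kg, and 8.14, 8.67 and 8.92 at 706 mg/kg. The value of 7.48 belonged to replicate 5 of 70.6 mg/kg, well below the other 35 arrays, of which the lowest had 8.14. The difference at 70.6 mg/kg was -0.42 (95% interval -0.73 to -0.12, adjusted p = 0.921, limma), and -0.25 without the 2 arrays of high GAPDH difference.

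Oas1b, an oligoadenylate synthetase relative that in mice restricts flaviviruses, had a dim probe set. Its values had a lowest, median and highest of 3.79, 3.83 and 4.05 at 706 mg/kg and 2.94, 3.71 and 3.91 in vehicle. Of the 6 livers at 706 mg/kg, 2 lay above the highest vehicle liver and the others inside the vehicle range. The difference was 0.28 at 706 mg/kg (95% interval -0.01 to 0.57) and 0.30 at 70.6 mg/kg (0.01 to 0.59), with adjusted p-values of 1.00 and 0.921 (limma). Without vehicle replicate 2, the lowest vehicle liver, the Oas1b differences were 0.15 and 0.17. The highest Oas1b value at 70.6 mg/kg, 4.32, belonged to replicate 5, an array of high GAPDH difference. Ifi44, an interferon-induced protein of the cytoplasm, had the smallest p in the test of any difference among groups (0.049, unadjusted). Its lowest, median and highest values were 5.54, 6.19 and 6.69 in vehicle, 6.23, 6.34 and 6.53 at 0.07 mg/kg, 5.53, 5.95 and 6.36 at 7.06 mg/kg, and 6.21, 6.27 and 6.42 at 706 mg/kg. The lowest livers were in vehicle and at 7.06 mg/kg, and no adjusted p was below 1.00 in that test.

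The 8 antigen processing genes encode immunoproteasome subunits, their activator and proteins that help load peptides on MHC class I. All 8 were above vehicle at 706, 70.6 and 0.71 mg/kg, 7 at 0.07 and 2 at 7.06 mg/kg, with medians of 0.12, 0.20, 0.14, 0.06 and -0.05, and none passed the test. Psme1, which encodes a subunit of the proteasome activator PA28, had the smallest p of the 39 genes for the slope over dose rank (0.0095, unadjusted, adjusted p = 0.998, limma). Its lowest, median and highest values were 11.17, 11.30 and 11.44 in vehicle, 11.26, 11.34 and 11.44 at 0.07 mg/kg, and 11.33, 11.39 and 11.49 at 0.71 mg/kg. They were 11.26, 11.33 and 11.40 at 7.06 mg/kg, 11.30, 11.43 and 11.74 at 70.6 mg/kg, and 11.36, 11.44 and 11.60 at 706 mg/kg. The medians of the 2 highest doses stood near the highest vehicle liver, and all dose groups overlapped vehicle. The Psme1 difference at 706 mg/kg was 0.13 (95% interval 0.01 to 0.25), and its other, dimmer probe set gave -0.0076.

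Psmb9, an immunoproteasome subunit with catalytic activity, was more variable. It had lowest, median and highest values of 8.01, 8.66 and 10.09 at 70.6 mg/kg and 7.82, 8.12 and 9.25 in vehicle. One liver, replicate 5 of 70.6 mg/kg, stood above all others, the next value on any array being 9.27. The difference was 0.57 at 70.6 mg/kg (95% interval 0.04 to 1.11) and 0.44 at 0.71 mg/kg, with adjusted p-values of 0.921 and 1.00 (limma). Without replicate 5 of 70.6 mg/kg, which is also its value without the 2 arrays of high GAPDH difference, the Psmb9 difference at that dose was 0.33. Psme2, the second PA28 subunit, averaged 9.97 ± 0.10 at 706 mg/kg and 9.90 ± 0.14 in vehicle (SD, n = 6 each).

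The 3 chemokines draw T cells and NK cells through the receptor CXCR3, and all 3 were above vehicle at every dose. Cxcl9 had lowest, median and highest values of 6.25, 6.73 and 7.28 in vehicle, 6.83, 7.03 and 7.27 at 0.07 mg/kg, and 6.26, 7.66 and 7.88 at 0.71 mg/kg. They were 6.42, 6.83 and 7.67 at 7.06 mg/kg, 6.76, 7.27 and 8.36 at 70.6 mg/kg, and 6.56, 7.24 and 7.70 at 706 mg/kg. Some livers of each dose except 0.07 mg/kg exceeded the highest vehicle liver, while others lay well inside its range. The difference was 0.62 at 70.6 mg/kg (95% interval 0.12 to 1.13) and 0.57 at 0.71 mg/kg (0.06 to 1.08), with adjusted p-values of 0.921 and 1.00 (limma). It was 0.43 at 70.6 mg/kg without the 2 arrays of high GAPDH difference. Cxcl11 ran from 8.99 to 9.31 at 706 mg/kg with a median of 9.23, and from 8.91 to 9.24 in vehicle with a median of 9.06. Its difference of 0.16 at 706 mg/kg did not pass the test.

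The 3 GTPases (Gbp2, Igtp and Irgm) guard vacuoles that hold pathogens. They were lower than vehicle at 7.06 mg/kg with a median log2 difference of -0.26, and at 706 mg/kg 2 of 3 were higher. Igtp had lowest, median and highest values of 7.15, 7.84 and 8.59 at 7.06 mg/kg and 7.34, 8.07 and 8.79 in vehicle. Irgm had 7.13, 7.62 and 8.38 at 7.06 mg/kg and 7.62, 7.98 and 8.31 in vehicle. Low livers lay below the vehicle range in both genes and high ones inside or above it. The Irgm difference was -0.29 with an adjusted p of 1.00 (limma), and ran from -0.42 without replicate 6 of that dose to -0.17 without its replicate 4.

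Ubd encodes FAT10, a ubiquitin-like protein that marks proteins for degradation and is induced by interferon gamma with tumour necrosis factor. Its single probe set split the livers. It read 4.59 in replicate 2 of 7.06 mg/kg, 4.83 in replicate 2 of 70.6 mg/kg and 5.08 in replicate 4 of vehicle, and from 7.16 to 10.56 on the other 33 arrays. The gap of 2.07 log2 between 5.08 and 7.16 held no array. Of 14217 genes, 4 had an inner gap at least as wide with 3 or more arrays on each side, Ubd among them. Named after their values were seen, the others were Ugt2b, Abhd3 and RT1-Ba, an MHC class II gene.

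**Figure D4:**
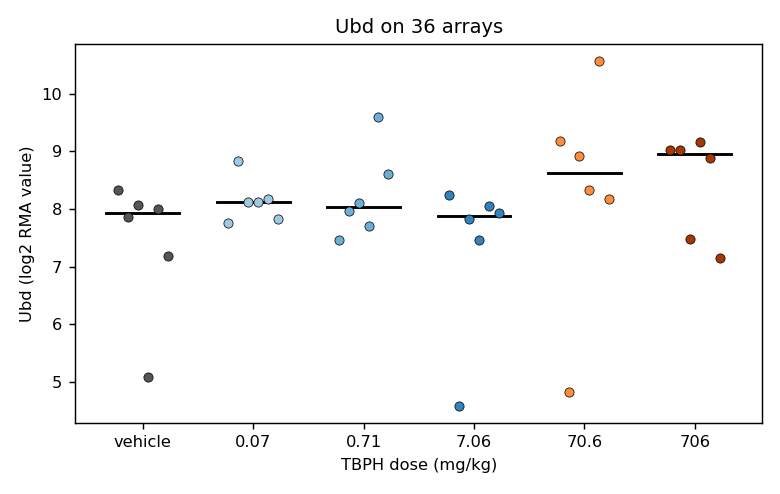
Ubd log2 RMA value on each of the 36 arrays against TBPH dose in mg/kg with vehicle at the left; points are arrays and bars are group medians. A set of 3 points, 1 each in vehicle, 7.06 and 70.6 mg/kg, lie at 4.59 to 5.08, and the other 33 lie between 7.16 and 10.56.

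The low Ubd arrays did not all have low interferon scores. Their type I scores were 0.00 at 7.06 mg/kg replicate 2, -0.40 at 70.6 mg/kg replicate 2 and 0.11 in vehicle replicate 4. Their gamma scores without Ubd were -0.01, -0.32 and 0.04 in the same order. Replicate 2 of 70.6 mg/kg was the lowest of its group in both scores. The lowest, median and highest Ubd values were 5.08, 7.93 and 8.33 in vehicle, 7.76, 8.12 and 8.84 at 0.07 mg/kg, and 7.45, 8.04 and 9.59 at 0.71 mg/kg. They were 4.59, 7.88 and 8.24 at 7.06 mg/kg, 4.83, 8.62 and 10.56 at 70.6 mg/kg, and 7.16, 8.95 and 9.17 at 706 mg/kg. The highest of these, 10.56, was replicate 5 of 70.6 mg/kg, an array of high GAPDH difference. The medians of the 2 highest doses stood above the highest vehicle liver, and some livers of each dose lay inside the vehicle range. The difference at 706 mg/kg was 1.04, the largest of the 39 genes at that dose, with an adjusted p of 1.00 (limma), and 0.57 without vehicle replicate 4, 1 of the 3 low Ubd arrays. Within the 33 arrays above the gap, Ubd had r = 0.69 (Spearman 0.66) with the gamma score without Ubd and 0.39 (Spearman 0.36) with the type I score, and the first became 0.53 without the 2 arrays farthest from the median gamma score.

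Markers of Kupffer cells moved with both scores. Of 10 listed markers 8 were on the array, and their mean level had r = 0.93 with the type I score (Spearman 0.90, 0.92 without the 2 farthest arrays, 0.93 on deviations from group means). With the gamma score without Ubd it had r = 0.87 (Spearman 0.86, 0.86 and 0.88). Each single marker was positive, from 0.55 for Cd163, a scavenger receptor, to 0.93 for Cd5l and for Clec4f, a lectin that in rodents marks Kupffer cells. In whole liver, fewer cells of a type and less RNA per cell cannot be told apart, and some macrophage markers respond to interferon themselves.

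**Figure D5:**
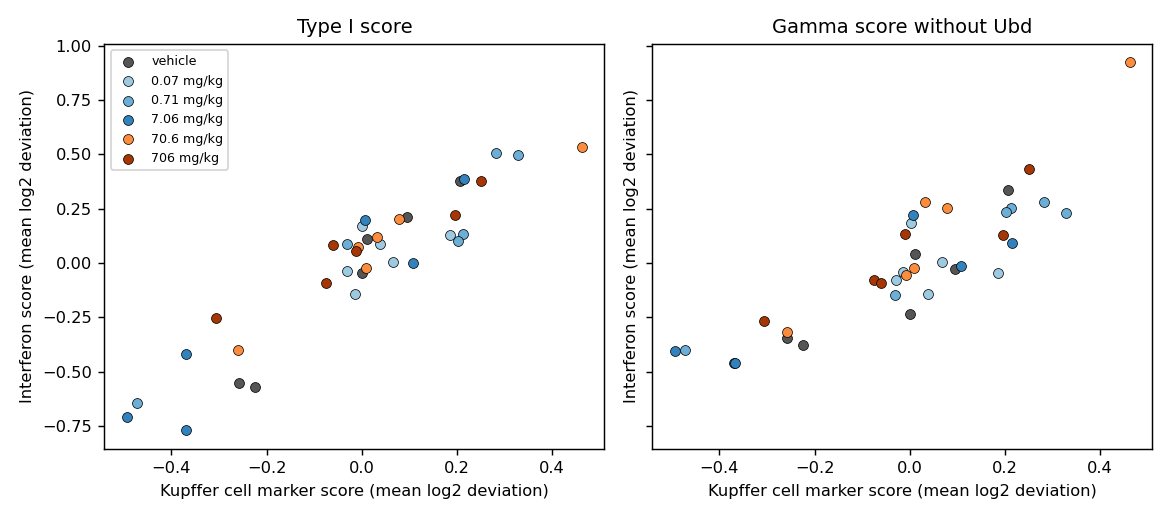
Type I score (left) and gamma score without Ubd (right) against the Kupffer cell marker score, all as mean log2 deviation; each point is 1 of 36 arrays, coloured by TBPH dose. Arrays of every group lie along 1 rising band (r = 0.93 and 0.87), with vehicle arrays at both its low and its upper part.

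The Kupffer marker level had a lowest, median and highest value of 8.35, 8.61 and 8.81 in vehicle, 8.57, 8.62 and 8.79 at 0.07 mg/kg, and 8.13, 8.81 and 8.93 at 0.71 mg/kg. It had 8.11, 8.42 and 8.82 at 7.06 mg/kg, and 8.35, 8.62 and 9.07 at 70.6 mg/kg, the last in replicate 5. At 706 mg/kg it had 8.30, 8.57 and 8.85. At 7.06 mg/kg 7 of the 8 markers were lower than vehicle, with a median log2 difference of -0.13, and at 70.6, 0.71 and 0.07 mg/kg all 8 were higher. At 706 mg/kg 5 of 8 were higher, with a median difference of 0.02. No marker passed the threshold at any dose.

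With the Kupffer marker score as a covariate, the median difference of the 39 genes was 0.13 at 706 mg/kg, 0.12 at 70.6, 0.02 at 7.06, 0.06 at 0.71 and 0.02 at 0.07 mg/kg. After that score was taken out of each gene, the median correlation was 0.18 over all pairs. It was 0.23 within the type I class, 0.36 within the gamma class and 0.10 across the classes. The part of Kupffer cell number in the interferon scores was not tested.

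Cytotoxic cell genes also moved with the scores, while the Cd3 chains, Cd2, Cd4 and Cd8a did not. All 12 listed T and NK cell markers were on the array. Ccl5, Gzma, Klrd1, Nkg7, Gzmb and Prf1 had correlations of 0.63 to 0.79 with the type I score, and Cd3e, Cd3d, Cd3g, Cd2, Cd8a and Cd4 had -0.11 to 0.11. These 6 read between 3.56 and 5.76 on all arrays. Of the genes that did follow, Klrd1, Gzmb and Nkg7 were as dim, between 3.43 and 5.37. Prf1, Gzma and Ccl5 reached 6.56, 7.34 and 8.77. The mean of the T and NK list ran from 4.78 to 5.21 in vehicle, 4.92 to 5.19 at 0.07 mg/kg, 4.96 to 5.35 at 0.71, 4.84 to 5.24 at 7.06, 4.87 to 5.70 at 70.6 and 5.02 to 5.22 at 706 mg/kg. The value of 5.70 belonged to replicate 5 of 70.6 mg/kg, an array of high GAPDH difference, and the next in that group was 5.08. The part of T and NK cells in the scores was not tested.

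The mean level of the 12 T and NK cell markers had r = 0.67 (Spearman 0.59) with the type I score and 0.71 (Spearman 0.52) with the gamma score without Ubd, and the second became 0.56 without the 2 arrays of high GAPDH difference. The mean levels of B cell (3 of 5 on the array), dendritic cell (4 of 6) and neutrophil and monocyte markers (5 of 7) had r = 0.63, 0.68 and 0.56 with the type I score. Within them Cd74, the MHC class II invariant chain, had 0.74, whereas the B cell genes Cd79b and Ms4a1 had 0.19 and 0.17. Of the neutrophil and monocyte markers, Ly6c had 0.75, whereas S100a8, S100a9, Lyz2 and Ccr2 had 0.10 to 0.30. Of the dendritic cell markers, Flt3 had 0.61, Clec9a 0.59, Itgax 0.31 and Batf3 -0.06. The mean level of sinusoidal endothelium markers (5 of 6) had 0.03, stellate cells (6 of 6) 0.16, hepatocytes (7 of 7) -0.21 and acute phase genes (6 of 7) 0.13.

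The genes outside the list that most resembled the scores were ranked by Pearson's r over the 36 arrays among 9730 genes with a mean of at least 5 log2. For the type I score these were Ms4a6bl1 (0.94), Rtp4 (0.94), Cd5l (0.93), Ccl6 (0.93) and Clec4f (0.93). For the gamma score with Ubd they were Tyrobp (0.91), LOC100910973 (0.90), Aif1 (0.88), RGD1309362 (0.88) and RT1-Db1 (0.87). Tyrobp is an adaptor of immune receptors on myeloid and NK cells, Aif1 a macrophage protein and RT1-Db1 an MHC class II chain. Ubd itself had no close match, with Arhgef2 (0.61), Rasa4 (0.60), RT1-CE10 (0.60), Atg14 (0.59) and Tmsb4x (0.59).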

How the data were processed

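Livers of 36 rat samples were measured on Affymetrix 3′ arrays. The deposited table holds log2 values, 1 per probe set and array, made by the authors with RMA in the affy package, per the submitters' processing notes (no versions given). The 57 array controls among 31099 probe sets were dropped. Symbols came from the platform annotation, which gave 1 symbol for 20826 probe sets. The members, classes and lists were chosen with earlier results of these data known.

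Each dose was compared with vehicle in limma 3.58.1 (R 4.3.3) on all 36 arrays, with a mean for each group (30 residual degrees of freedom). Tests were two-sided, with Benjamini-Hochberg adjustment over 31042 probe sets and a threshold of 0.05. The fit was tested on simulated data. R/maanova, which the series' design names, was not used here. Precision is limited by the number of arrays, and the median standard error of a difference over all probe sets was 0.08. The 39 genes varied more, with a median standard deviation within groups of 0.36 log2 against 0.14 for all genes.

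Named genes were, per role, the 2 with the smallest p among groups and the 2 brightest, the 2 smallest p in each direction at each dose, Ubd, Stat2, Irf9, Irf1 and Irf7; in the pathway list, the 2 with the smallest p at each dose. Other names are marked where used or serve as examples of ligands, markers and promoters. Pearson correlations over 36 arrays carry no test. Alternatives were a fit on 2 groups only, a replicate block, other variance moderation, array weights, no dim probe sets, centred arrays, another probe set per gene, the GAPDH controls and each array left out. The Kupffer score covariate and counts under each alternative were added after seeing the data. Same-numbered arrays had a mean residual correlation of -0.02 (17 of 90 pairs over 0.1), against 0.003 for arrays of different numbers. Single same-number pairs ran from -0.41 to 0.27, so the mean cannot show whether the numbers pair the samples. Figures used matplotlib 3.10.9.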

Additional observations from a re-analysis of the deposited data

Results flagged for a closer look

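In groups of 6 arrays, a lowest or highest value was set apart from the others in 15 of 138 cases tested (by Dixon's test of the gap over the range), and chance sets apart about 1 in 20 groups. Replicate 4 of 0.71 mg/kg was low in 6 of them: its type I score was -0.64 (next value in the group 0.09), Oas1b was 3.22, Ifi27 11.83, Bst2 10.68, Irf7 6.34 and Irf9 6.13. Its Kupffer marker score was -0.47. These genes move together, so the 6 are not separate events.

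Ubd was set apart in vehicle replicate 4 at 5.08 and in 7.06 mg/kg replicate 2 at 4.59. Ifi27 was also low in replicate 2 of 70.6 mg/kg at 12.21 and in replicate 6 of 706 mg/kg at 12.44, where Cxcl11 was low too at 8.99. Trim25 was 7.48 in replicate 5 of 70.6 mg/kg. Dhx58 was low in replicate 4 of 0.07 mg/kg at 5.21, the other array of high GAPDH difference, and high in replicate 3 of 70.6 mg/kg at 5.94. Ifit1 was high in vehicle replicate 1 at 6.00. What lies behind these values was not tested.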

How the results depend on the processing

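Under 51 settings, 1264 values were recomputed, of which 4 reversed and 36, mostly counts at an unadjusted p under 0.05, moved by over 1.5 times or by more than the spread between arrays. For the median differences that spread was 0.31 log2 over all members, 0.35 for type I and 0.31 for gamma, wider than any of these medians. The tally therefore says little about how stable the medians are. Medians that crossed 0 within that spread are given below. No setting called a member or any probe set, and the lowest adjusted p of a named member was 0.755. The signs of 4 small differences reversed: Psme1 at 706 mg/kg was -0.0076 with the most variable probe set of each gene, Ifit2 at 0.07 mg/kg was 0.036 without vehicle replicate 1 and 0.00285 without replicate 2 of that dose (range -0.24 to 0.036 with each array left out), and Oas1b at 7.06 mg/kg was -0.0396 without vehicle replicate 2 (range -0.0396 to 0.15). The median correlation among members was 0.18 after the Kupffer marker score, against 0.59. The cause of these changes was not tested.

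With each array left out in turn, the median difference of all members ranged from 0.07 to 0.21 at 706 mg/kg, 0.10 to 0.32 at 70.6, -0.16 to -0.01 at 7.06, 0.09 to 0.26 at 0.71 and 0.0009 to 0.19 at 0.07 mg/kg. The gamma median changed sign at 7.06 mg/kg (0.04 without vehicle replicate 1, 0.06 with the Kupffer covariate, which gave 0.02 over all members) and at 0.07 mg/kg (-0.0011 without vehicle replicate 2). The replicate block, for which the labels do not say what the numbers mean, called 0 members at every dose. It gave 8 at an unadjusted p under 0.05 at 70.6 mg/kg. Only 4 of 36 arrays correlated best with their own number. Probe sets near the array background understate differences, and 3 members lie below the median probe set.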
